A study of Homo sapiens with 16 samples.

Results

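The transcripts of 44 genes for translation initiation and elongation factors were followed in U2OS cells, a human osteosarcoma line, before and after exposure to 5-fluorouracil (5-FU). The genes were taken from a list of names drawn with earlier results of these data known. Comparisons of their counts with those of all genes are therefore descriptions. The names were looked up in the count tables of both experiments, and all 44 were found among the 28710 genes that the tables share. The list holds 5 genes of start site scanning and subunit joining, 8 of eIF2 and its exchange factor eIF2B, 13 of eIF3, 9 of the cap-binding eIF4 group, 6 of elongation, and 3 genes whose messages are known to be controlled together with these (PABPC1, TPT1 and HNRNPA1).

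Translation of a cytosolic message begins when eIF4E binds the cap, eIF4G and the helicase eIF4A with its helper eIF4B open the leader, and a small ribosomal subunit carrying eIF1, eIF1A, eIF3, eIF5 and the initiator tRNA bound by eIF2 scans for the start codon. eEF1A then delivers aminoacyl-tRNAs and eEF2 moves the ribosome along the message. Many of the factors, like the ribosomal proteins, are encoded by messages with a terminal oligopyrimidine (TOP) tract, a C followed by a run of pyrimidines at the cap, through which mTORC1 controls their translation and stability.

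The study compared unedited U2OS cells (WT) with isogenic cells made by CRISPR/Cas9 editing that carry MDM2 W329G, a change in the E3 ubiquitin ligase that restrains p53. Each genotype was represented by cells numbered 1 and 2, here called lines; whether a line is 1 clone and how many alleles carry the change is not given in the sources used here. Every line received the solvent DMSO or 50 µM 5-FU, a pyrimidine analog that disturbs ribosomal RNA processing and thymidylate synthesis, for 24 h. The design was carried out as 2 experiments sequenced by different vendors, which makes 4 groups (WT DMSO, WT 5-FU, W329G DMSO and W329G 5-FU) of 4 libraries each. By the labels, replicates 1 and 2 of every group stand for lines 1 and 2 in experiment 1. Replicates 3 and 4 carry the same line numbers in experiment 2. Whether the numbers name the same lines in both experiments was not tested, and correlations between the experiments are given below.

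Libraries held from 24715999 to 56877328 counts, and mitochondrially encoded genes took 7.14% to 31.8% of the joined counts. MDM2, a p53 target itself, rose in WT by 1.95 ± 0.19 (log2, ± SE) under 5-FU (edgeR quasi-likelihood test, adjusted p = 1.8e-05), and its response was 1.85 ± 0.27 lower on the log2 scale in W329G (adjusted p = 0.00219). Of 9 osteoblast markers, 6 exceeded 1 CPM (counts scaled to the library size) in the mean over the 16 libraries: COL1A1 reached 9201.8 CPM and SPARC 4355.8 CPM, while SP7 and IBSP stayed at or below 0.0847 and 0.0361 CPM. Of 7 epithelial markers all exceeded 1 CPM in that mean, and KRT18 lay at 95.8 CPM or more in every library. KRT19 lay at 21.8 to 32.8 CPM in experiment 1 and at most 0.0241 CPM in experiment 2. CDH1 reached 9.74 and 0.686 CPM in experiments 1 and 2, and ESRP1 3.31 and 0.543 CPM. Of 6 blood markers LYZ alone exceeded 1 CPM in that mean. It lay at 37.7 to 129.6 CPM in experiment 1 and at most 0.0722 CPM in experiment 2. Of 5 neural markers 4 exceeded 1 CPM. The cause of these gaps between the experiments was not tested. The labels do not say that the replicates were separate cultures, so every p-value below measures the spread between these libraries.

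Of the 44 genes, 35 had a start site in the set of RefSeq start sequences used here (GRCh38.p14). Their start sequences were searched for a TOP-like run, defined as a C at the first transcribed base followed by at least 4 bases that are C or T. The run was present at a start of 11 of the 35 genes (31.4%), against 4.07% of all 35116 windows and 5.14% of all 27305 genes in the same table. The match is a description of these letters at the annotated start, searched on the transcribed strand only. The lines below give 15 bases before and 15 bases from the start of 6 genes with the run, with the run in capitals, and then of 2 genes without it whose levels differed between groups.
EIF4B, chr12:53006441-53006470, plus strand: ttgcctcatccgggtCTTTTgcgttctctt
EIF3D, chr22:36529152-36529181, minus strand: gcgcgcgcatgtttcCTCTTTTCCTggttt
EEF1A1, chr6:73521018-73521047, minus strand: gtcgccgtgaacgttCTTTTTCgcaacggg
EEF2, chr19:3985449-3985478, minus strand: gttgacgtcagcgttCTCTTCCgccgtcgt
TPT1, chr13:45341169-45341198, minus strand: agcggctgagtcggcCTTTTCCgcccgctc
EIF4A2, chr3:186783562-186783591, plus strand: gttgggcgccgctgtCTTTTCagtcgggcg
EIF4EBP2, chr10:70404130-70404159, plus strand: ctcccgccttcgcccgcttccggtcgtcgt
EIF3J, chr15:44537132-44537161, plus strand: cacctccgccgtgctaactcctcgctagct
The other genes with the run were EEF1B2, at 1 of its annotated starts, EIF2S3, EIF3F, EIF3K and EIF3M. HNRNPA1, PABPC1, EIF2S2, EIF3A, EIF3E, EIF3G, EIF3H, EIF3L and EEF1D had no start in the set used and were not searched.

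The factors covered a wide range of levels. Per kilobase of exon, in experiment 1 under DMSO in WT, the highest were EEF1A1 (eEF1A) at 1529.3 CPM per kb, EEF2 at 487.4, HNRNPA1 (an RNA-binding protein of the nucleus) at 326.2, PABPC1 (the poly-A binding protein) at 311.5 and EIF5A (which helps ribosomes past stalling stretches) at 239. Replicates 1 and 2 gave 319 and 333.3 CPM per kb for HNRNPA1 and 283.9 and 339.1 for PABPC1, so these neighbours in the order did not differ beyond their spread. EEF1A1 lay above EEF2 in both libraries, with 1228.6 and 1830.1 against 425.6 and 549.2 CPM per kb. Of the eIF2B subunits, EIF2B3 lay at 11.2 and EIF2B5 at 8.96 CPM per kb, and EIF4E, the cap-binding protein itself, at 7.16. In experiment 2 EEF1A1 was again the highest, at 1153.1 CPM per kb, followed by PABPC1 at 447.5, EEF1G at 420.1 and EEF2 at 330.3.

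For 4 of the genes the level depended on the experiment by more than 10-fold, while the other 40 lay within 2.35-fold. EEF1G, a subunit of the eEF1 exchange complex, was at most 1.53 CPM in experiment 1 and at least 913.1 CPM in experiment 2. In the experiment 1 annotation 99.9% of its exon bases also belong to another gene on the same strand, ENSG00000255508, and the tables of that experiment gave 846 counts to that gene and 264 to EEF1G. EIF4A1, which shares 41.1% of its exon bases with ENSG00000264772 and 29.8% with SENP3-EIF4A1, was 23.8 times higher in experiment 2, and EIF3C, which has the near-identical copy EIF3CL, 14.1 times higher. EIF3F went the other way and was 17.4 times higher in experiment 1, with no exon overlap. Values of these genes are uncertain, and so are genotype values that sum the experiments. EIF3L also shares 41.1% of its exon bases with another gene of the same strand, which held 1400 counts against its own 51504.

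**Figure D1:**
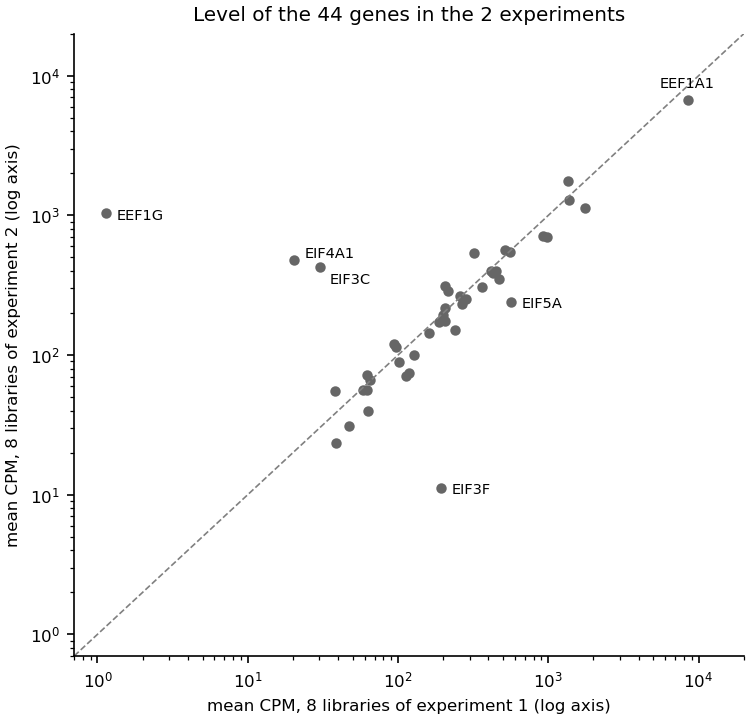
Mean level of each of the 44 genes over the 8 libraries of experiment 1 (horizontal, CPM, log axis) and of experiment 2 (vertical, CPM, log axis), with the line of equal levels. EEF1G, EIF4A1 and EIF3C lie far above the line and EIF3F far below it.

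In WT cells, 5-FU lowered 9 of the 44 genes and raised none (edgeR quasi-likelihood test, 16 libraries, experiment as a covariate, Benjamini-Hochberg adjusted p under 0.05). Over all 16444 genes tested, 5.22% fell and 3.56% rose by the same rule, 8.78% in either direction. Those that fell were EIF4B, HNRNPA1, EIF3D, EIF4EBP2, PABPC1, EIF2S2, EEF2, EIF3E and EIF1AX. The median log2 change of the 44 genes was -0.21, against 0.01 over all genes tested, and 39 of them had a negative change. In bulk RNA, fewer cells of a type and less RNA per cell cannot be told apart, and the values are relative to the other transcripts of a library.

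With line and experiment as a block, so that each 5-FU library was set against the DMSO library of the same line, 18 of the 44 fell and 2 rose, against 13.1% and 11.6% of all genes. The 2 that rose were EIF4A2 and EIF6. Counted by pairs with no test, 27 of the 44 genes were lower under 5-FU in all 4 pairs (61.4%, against 21.2% of all genes tested) and 3 were higher in all 4 (6.82%, against 20.7%). Leaving out replicate 1, 2, 3 or 4 left 4, 3, 5 and 3 of the 9 calls. Each experiment alone left none (edgeR, 6 and 9 of the 44 at an unadjusted p under 0.05 in experiments 1 and 2). The share of all genes at an unadjusted p under 0.05 is not given here or below. Counts at that limit therefore describe the listed genes only. The calls over all genes fell as well, from 1444 to 751, 664, 1176 and 660 without replicates 1 to 4. Experiments 1 and 2 alone gave 205 and 0 calls over all genes.

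In W329G cells 5 of the 44 genes fell and none rose, namely EIF4B, HNRNPA1, EIF4EBP2, EIF3D and EIF3L. Among all genes tested 0.59% fell and 0.195% rose in this comparison, 0.784% in either direction. The median log2 change of the 44 genes was -0.19, against 0.02 over all genes, and 36 were negative. With the block, 16 fell and none rose, against 5.77% and 5.13% of all genes, and 12 fell by DESeq2, against 2.26% of all genes it tested. By pairs, 22 were lower in all 4 (50%, against 16.9%) and 1, EIF6, was higher in all 4 (2.27%, against 17.4%). Leaving out replicate 1, 2, 3 or 4 left 2, 1, 2 and 1 of the 5 calls, and each experiment alone left none (12 and 9 unadjusted). The calls over all genes fell as well, from 129 to 22, 14, 20 and 11 without replicates 1 to 4, and to 0 in either experiment alone.

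EIF3D, EIF4B, EIF4EBP2 and HNRNPA1 were called in both genotypes, which is 44.4% of the 9 WT calls and 80% of the 5 W329G calls, all in the same direction. With the block 13 genes were shared, 65% of the 20 in WT and 81.2% of the 16 in W329G. The share of calls common to both genotypes is not given here for all genes, so these percentages describe the 44 genes only. The difference between the responses (W329G minus WT) passed the test for none of the 44 genes, where 1.2% of all genes passed it. At an unadjusted p under 0.05 none of the 44 passed in this fit. DESeq2 also called none of them (1 unadjusted), against 3.05% of all genes, and the fit with the block none (2 unadjusted), against 6.14%. The half-width of the 95% interval of the difference ran from 0.28 to 0.74 on the log2 scale, with a median of 0.42. These intervals are not adjusted for the number of genes, so the adjusted test can miss differences of these sizes and larger ones.

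**Figure D2:**
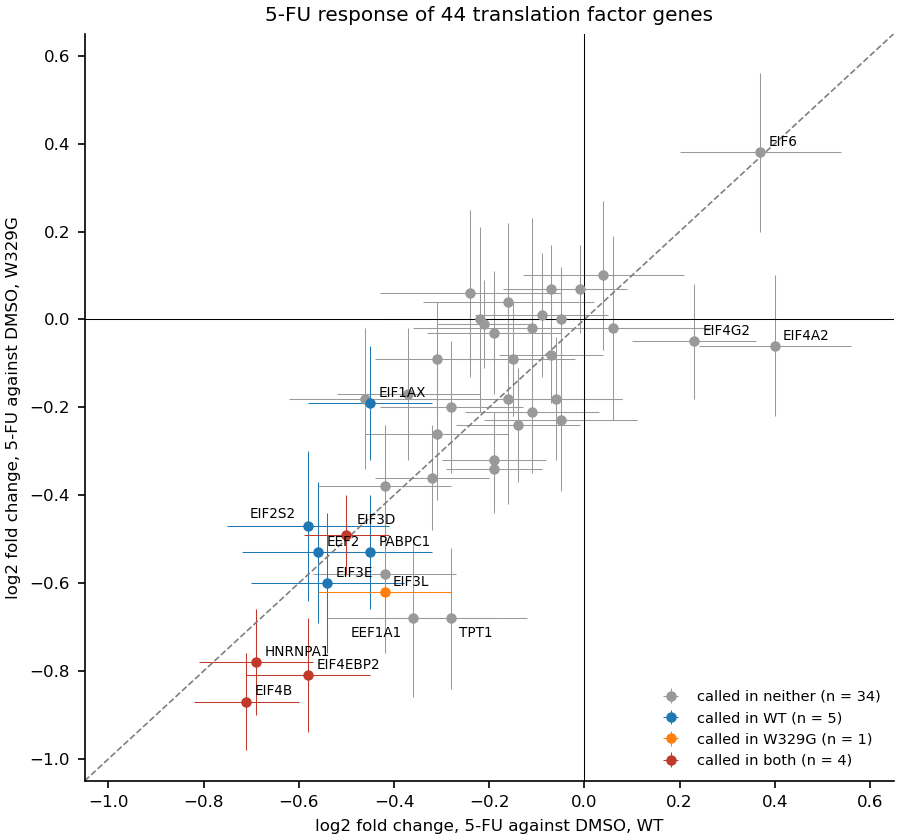
Log2 fold change under 5-FU against DMSO in WT (horizontal) and W329G (vertical) for each of the 44 genes, with bars of 1 SE and colours for the genotype in which the adjusted p was under 0.05; the dashed line marks equal responses. The 4 genes called in both genotypes lie at the lower left, and EIF6, called in neither, at the upper right.

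Each of the 8 pairs of a DMSO and a 5-FU library gave a negative median over the 44 genes. In WT the pair medians were -0.19, -0.25, -0.19 and -0.39 for replicates 1 to 4 (mean -0.253 ± 0.096 SD, n = 4), and in W329G they were -0.32, -0.22, -0.19 and -0.21 (mean -0.238 ± 0.059 SD, n = 4). The median of all genes tested lay between 0 and 0.01 in every pair, and between 31 and 39 of the 44 genes were lower in a pair.

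**Figure D3:**
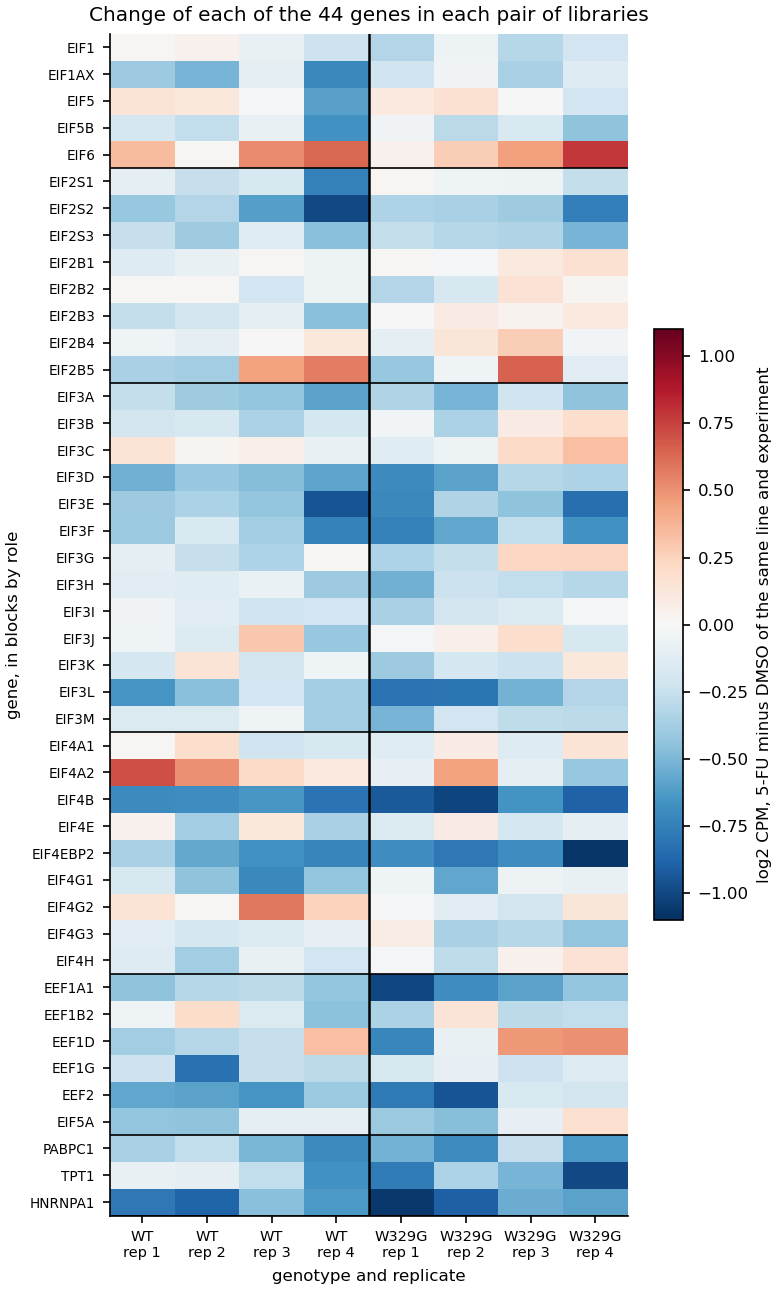
Change in log2 CPM (5-FU minus DMSO within a line and an experiment) of each of the 44 genes (rows, in blocks by role) in the 8 pairs (columns, WT left, W329G right); blue is lower under 5-FU and red higher. EIF4B, HNRNPA1, EIF3D and EIF4EBP2 are blue in all 8 columns and EIF6 is red or near white.

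The cap-binding group held 2 of the 4 genes called in both genotypes. EIF4B (ENSG00000063046, chr12:53006158-53042209, plus strand), the cofactor of the eIF4A helicase, measured 624.1, 710, 650 and 699.2 CPM in WT DMSO replicates 1 to 4 and 384.5, 444.2, 415.9 and 397.5 CPM in WT 5-FU. In W329G it measured 801.3, 702.5, 627 and 761.4 CPM under DMSO and 423.7, 348.1, 397.8 and 411.2 CPM under 5-FU. All 8 treated libraries lay below all 8 untreated ones. The log2 change was -0.71 ± 0.11 in WT (edgeR, adjusted p = 0.000728) and -0.87 ± 0.11 in W329G (edgeR, adjusted p = 0.00158), and the call held without any one replicate in both genotypes.

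EIF4EBP2 (ENSG00000148730, chr10:70404379-70428618, plus strand) encodes a protein that binds eIF4E and blocks its contact with eIF4G. Its level in WT was 79.8, 83.3, 90.9 and 105.8 CPM under DMSO and 62.2, 56.4, 57.2 and 63.9 CPM under 5-FU. In W329G it was 77, 59.6, 70.5 and 94.3 CPM under DMSO and 48.2, 34.4, 44 and 44.9 CPM under 5-FU. Treated and untreated libraries did not overlap within either genotype, with log2 changes of -0.58 ± 0.13 in WT (edgeR, adjusted p = 0.0121) and -0.81 ± 0.13 in W329G (edgeR, adjusted p = 0.0123). The call was lost without replicate 2 (adjusted p = 0.0783) or 4 (0.0876) in WT and without replicate 2 (0.0541), 3 (0.0663) or 4 (0.123) in W329G.

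The paralogous helicase gene EIF4A2 measured 164.2, 158.8, 242.7 and 270.6 CPM in WT DMSO and 268.1, 224.4, 280 and 293.1 CPM in WT 5-FU, a log2 change of 0.40 ± 0.16 (edgeR, adjusted p = 0.158; 0.0484 with the block). Every WT pair was higher under 5-FU, though the groups overlapped across experiments. In W329G the values were 204.3, 183.7, 311.2 and 461.4 CPM under DMSO and 192.3, 248.7, 291.3 and 345.6 CPM under 5-FU, higher in 1 of 4 pairs, with changes of 0.18 and -0.29 in experiments 1 and 2. The difference between the responses was -0.46 ± 0.23 (edgeR, adjusted p = 0.592, 95% interval -0.94 to 0.03), and its unadjusted p was the smallest of the 44 genes. EIF4G2, an eIF4G relative without the eIF4E site, had a log2 change of 0.23 ± 0.13 in WT and -0.05 ± 0.13 in W329G, with a difference of -0.28 ± 0.19. Of the 9 genes of the group, 2 fell in each genotype, the same 2, with medians of -0.15 in WT and -0.09 in W329G. These counts by role, and those below, stand against 5.22% of all genes that fell in WT and 0.59% in W329G, and in groups this small they describe the members only.

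eIF3 is the large scaffold that holds the initiation factors on the small subunit. Of its 13 subunits 2 fell in WT (EIF3D and EIF3E) and 2 in W329G (EIF3D and EIF3L), against 5.22% and 0.59% of all genes, with median log2 changes of -0.19 and -0.32. EIF3D (ENSG00000100353, chr22:36510850-36529436, minus strand), a subunit that can contact the cap of some messages, measured 229.8, 244.2, 206.7 and 217.4 CPM in WT DMSO and 159.5, 183, 147.9 and 145.6 CPM in WT 5-FU. In W329G it measured 258.9, 240.1, 196.8 and 183.9 CPM under DMSO and 159.9, 159.4, 158.6 and 145.7 CPM under 5-FU. The groups did not overlap in either genotype, and the log2 changes were -0.50 ± 0.09 (edgeR, adjusted p = 0.00346) and -0.49 ± 0.09 (edgeR, adjusted p = 0.0299), with a difference of 0.01 ± 0.13 (95% interval -0.27 to 0.30) that was -0.18 in experiment 1 and 0.19 in experiment 2. The W329G call was lost when any one replicate was left out (adjusted p from 0.1 to 0.246), and the WT call in none of these fits (0.016 to 0.0346).

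EIF3E, a subunit that helps to bring in eIF4G, had 390.8, 468.9, 387.4 and 546.4 CPM in WT DMSO and 296.9, 367.4, 286.6 and 282.5 CPM in WT 5-FU, which do not overlap. The log2 change was -0.54 ± 0.16 in WT (edgeR, adjusted p = 0.0426, and 0.0886 to 0.271 without one replicate) and -0.60 ± 0.16 in W329G (edgeR, adjusted p = 0.0994; 0.00874 with the block). EIF3L, which forms a pair with EIF3K at the edge of the complex, had 330.5, 250.5, 355 and 315.5 CPM in W329G DMSO and 188.7, 143.9, 247.4 and 252.1 CPM in W329G 5-FU. The highest treated library lay just above the lowest untreated one, and the change was -0.62 ± 0.14 (edgeR, adjusted p = 0.0488, and 0.159 to 0.224 without one replicate). In WT EIF3L changed by -0.42 ± 0.14 (edgeR, adjusted p = 0.0723; 0.00954 with the block). EIF3F, whose level differed between experiments, gave -0.27 and -0.58 in experiments 1 and 2 in WT and -0.66 and -0.51 in W329G.

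**Figure D4:**
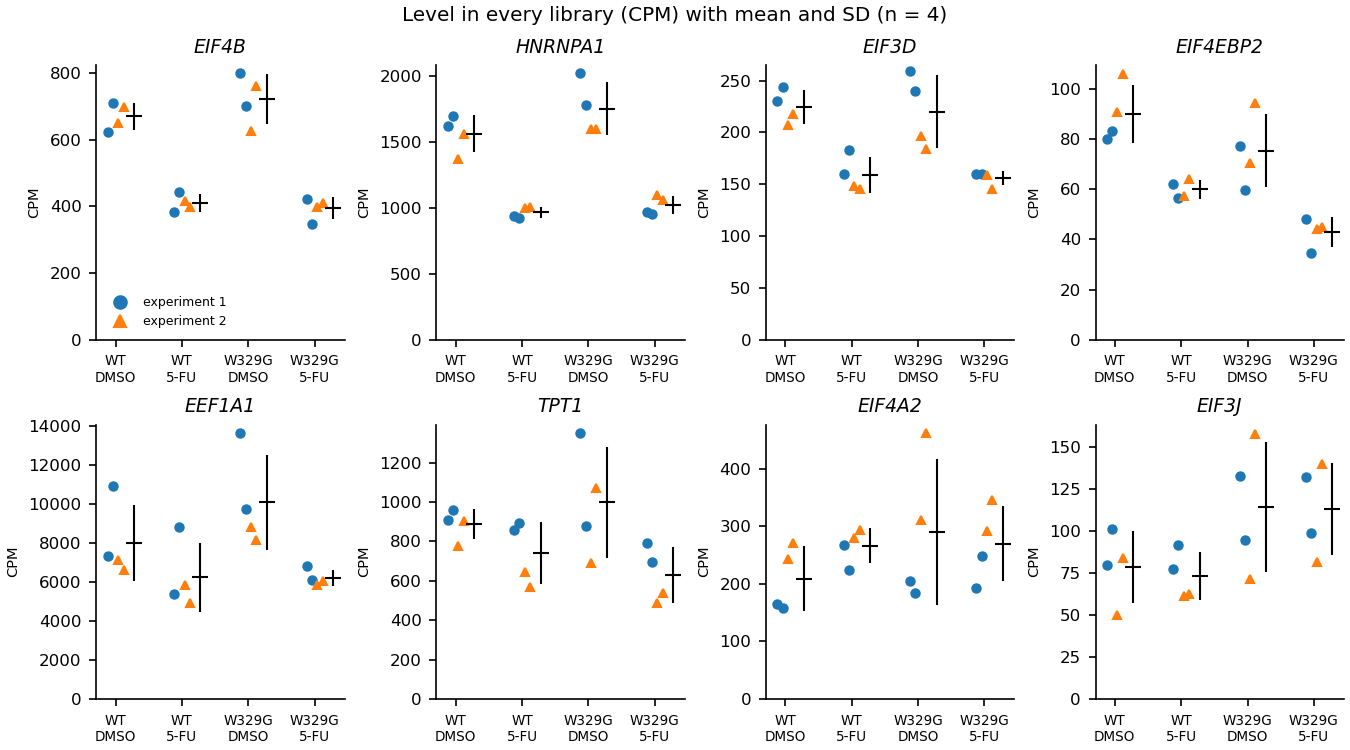
Level in CPM of 8 of the genes in each library (blue circles, experiment 1; orange triangles, experiment 2) with the mean and SD of each group (black, n = 4), on axes that start at 0. In the upper row the 5-FU libraries lie below the DMSO libraries of the same genotype; in the lower row groups overlap, except for EEF1A1 in W329G.

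Of the 6 elongation genes 1 fell in WT and none in W329G, with medians of -0.32 and -0.20; in W329G 2 had an unadjusted p under 0.05 and 2 fell with the block. EEF2, the translocase, measured 1713.8, 2211.5, 1523.3 and 1137 CPM in WT DMSO and 1154.1, 1470.1, 972.3 and 856 CPM in WT 5-FU. All 4 pairs were lower although the groups overlapped, and the log2 change was -0.56 ± 0.16 (edgeR, adjusted p = 0.042, and 0.0993 to 0.142 without one replicate). In W329G it was -0.53 ± 0.16 (edgeR, adjusted p = 0.155), with -0.86 in experiment 1 and -0.20 in experiment 2.

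EEF1A1 measured 7307.9, 10885.2, 7091 and 6626.3 CPM in WT DMSO and 5381.1, 8798.7, 5816 and 4915.3 CPM in WT 5-FU. In W329G it measured 13595.2, 9732, 8794 and 8147.3 CPM under DMSO and 6787.6, 6087.7, 5836.5 and 6038.7 CPM under 5-FU. The W329G groups did not overlap, while the WT groups did through 5-FU replicate 2. The log2 changes of -0.36 ± 0.18 in WT (edgeR, adjusted p = 0.271) and -0.68 ± 0.18 in W329G (edgeR, adjusted p = 0.104) passed only with the block (0.0396 and 0.00457). EIF5A gave -0.28 ± 0.15 in WT and -0.20 ± 0.15 in W329G (-0.45 and 0.02 in experiments 1 and 2), and passed in neither.

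Among the 5 scanning and joining genes EIF1AX (eIF1A) fell in WT, from 61.6, 80.6, 53.9 and 85.1 to 46.7, 56.7, 50.4 and 51.9 CPM. The groups overlapped through DMSO replicate 3, and the change was -0.45 ± 0.13 (edgeR, adjusted p = 0.046); without one replicate the adjusted p ran from 0.0212 to 0.238. In W329G it was -0.19 ± 0.13 (edgeR, adjusted p = 0.584). EIF6, which keeps the large ribosomal subunit from joining too early, had positive values of 0.37 ± 0.17 in WT (edgeR, adjusted p = 0.229; 0.0368 with the block) and 0.38 ± 0.18 in W329G (edgeR, adjusted p = 0.375; 0.0593 with the block).

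Of the 8 genes of eIF2 and eIF2B, EIF2S2, the beta subunit of eIF2, fell in WT. It measured 167.5, 209.5, 194.5 and 211.1 CPM under DMSO and 125.3, 167.3, 127.8 and 106.3 CPM under 5-FU, a change of -0.58 ± 0.17 (edgeR, adjusted p = 0.0399, and 0.0767 to 0.261 without one replicate). The groups met without overlapping. In W329G the value was -0.47 ± 0.17 (edgeR, adjusted p = 0.223; 0.0202 with the block). EIF2S3, the gamma subunit of eIF2, gave -0.32 ± 0.12 in WT and -0.36 ± 0.12 in W329G, called in both only with the block (edgeR, adjusted p = 0.0179 and 0.0199). None of the 5 eIF2B genes passed without the block.

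HNRNPA1 (ENSG00000135486, chr12:54280193-54287088, plus strand) measured 1624.9, 1697.7, 1373.5 and 1563.1 CPM in WT DMSO and 942.3, 924, 999.6 and 1007.2 CPM in WT 5-FU. In W329G it measured 2028.4, 1783.9, 1602.5 and 1602.2 CPM under DMSO and 971.3, 954.6, 1097.3 and 1061.6 CPM under 5-FU. No treated library reached any untreated one, and the log2 changes were -0.69 ± 0.12 (edgeR, adjusted p = 0.00144) and -0.78 ± 0.12 (edgeR, adjusted p = 0.00786). The WT call held without any one replicate, and the W329G call was lost without replicate 1 (adjusted p = 0.0859), 2 (0.0639) or 4 (0.0753). The change was larger in experiment 1 (-0.83 in WT and -0.99 in W329G) than in experiment 2 (-0.55 and -0.58), a difference that was not tested.

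PABPC1 fell in WT from 1349.2, 1611.4, 2073.9 and 2178.9 to 1052.5, 1339.2, 1469.9 and 1339.9 CPM. Every pair was lower and the groups overlapped between experiments, with a change of -0.45 ± 0.13 (edgeR, adjusted p = 0.0386, and 0.0686 to 0.236 without one replicate). In W329G the change was -0.53 ± 0.13 (edgeR, adjusted p = 0.0737; 0.0104 with the block). TPT1, which encodes the protein also called TCTP, measured 1349.8, 879.4, 692.2 and 1072.5 CPM in W329G DMSO and 793.7, 695.8, 487.6 and 540.1 CPM in W329G 5-FU. That is -0.68 ± 0.16 (edgeR, adjusted p = 0.0649; 0.0071 with the block), against -0.28 ± 0.16 in WT (edgeR, adjusted p = 0.325), with a difference of -0.39 ± 0.22 (edgeR, adjusted p = 0.681, 95% interval -0.87 to 0.08).

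Seen by start sequence, the 11 genes with a TOP-like run had a median log2 change of -0.32 in WT and -0.49 in W329G, and the 24 genes with a start but no run had medians of -0.15 and -0.06. The 9 genes that were not searched, which include some known TOP messages, had medians of -0.42 and -0.47, near those of the 11, with 4 and 2 called. In WT 3 of the 11 (EIF3D, EIF4B and EEF2) and 2 of the 24 (EIF1AX and EIF4EBP2) fell, and in W329G 2 of the 11 and 1 of the 24, against 5.22% and 0.59% of all genes. With the block 6 of the 11, 6 of the 24 and 6 of the 9 fell in WT, and 8, 1 and 7 of them in W329G, against 13.1% and 5.77% of all genes. All 11 were negative in W329G and 10 in WT, where EIF4A2 was the exception. A list of 12 of the genes known as TOP messages from the literature, some of which had no start in the table, had medians of -0.40 in WT and -0.55 in W329G, with 5 and 2 called. These lists were drawn with earlier results of these data known, so the values are descriptions.

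The 44 genes together took 2.29% ± 0.324 (SD, n = 4) of the counts in WT DMSO and 1.81% ± 0.329 in WT 5-FU. In W329G they took 2.71% ± 0.423 under DMSO and 2.04% ± 0.229 under 5-FU. EEF1A1 alone took from 0.443% (WT 5-FU replicate 1) to 1.44% (W329G DMSO replicate 1) of a library's counts. Mitochondrially encoded genes took a larger share under 5-FU in 7 of the 8 pairs. With those genes left out of the total the 4 shares became 2.85%, 2.37%, 3.23% and 2.49%, and WT kept 7 and W329G 4 of its calls.

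**Figure D5:**
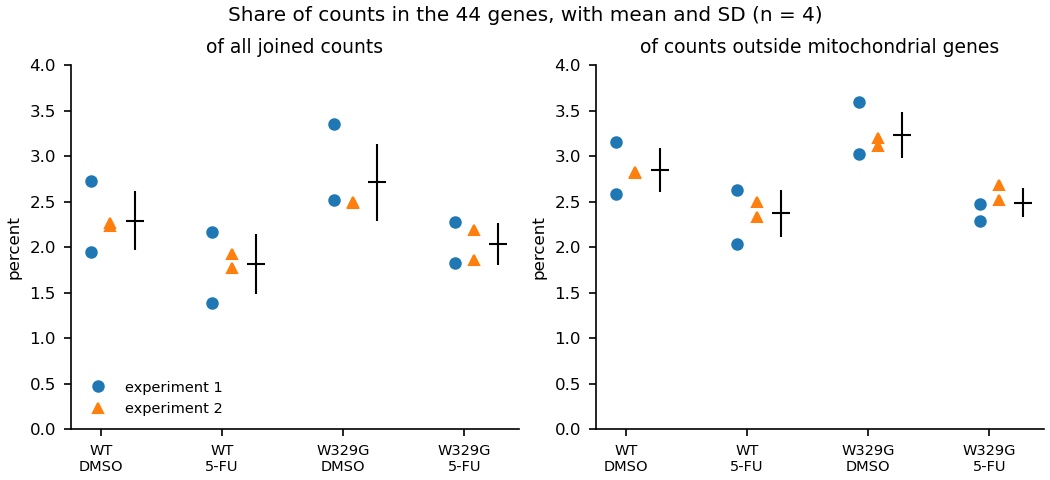
Percent of counts in the 44 genes in each library (blue circles, experiment 1; orange triangles, experiment 2), with the mean and SD of each group (black, n = 4), of all joined counts on the left and of counts outside mitochondrial genes on the right. In both panels the means of the 5-FU groups lie below those of the DMSO groups of the same genotype.

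Between the genotypes under DMSO, none of the 44 genes passed the test on 8 sums of counts, 1 per line and treatment, where 1.42% of all 17492 genes did. At an unadjusted p under 0.05, 7 passed, with no share of all genes at hand to set beside them. DESeq2 called 2 as higher in W329G, against 3.65% of all genes it tested. The median log2 difference (W329G minus WT) was 0.11, against 0 over all genes. EIF1, which guards the choice of the start codon, had the smallest p, with 325.1, 482.9, 356.3 and 277.3 CPM in WT and 585.6, 540.5, 472.9 and 391.4 CPM in W329G. The groups overlapped across experiments, and within each experiment both W329G libraries lay above both WT libraries, a difference of 0.46 ± 0.11 (edgeR, adjusted p = 0.0848). EIF2S3 was next, at 0.37 ± 0.12 (edgeR, adjusted p = 0.15). EIF3J, a loosely bound eIF3 subunit, differed by 0.60 ± 0.20 (edgeR, adjusted p = 0.162) and was the 1 gene called with line number as a block (0.0487), where 1.32% of all genes were called as higher. Without WT line 2 as many as 5 genes were called, all higher in W329G, but the calls over all genes rose as well, from 249 to 2306, of which 904 were higher. Without any other line none of the 44 was called.

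Under 5-FU 2 of the 44 genes differed between the genotypes, against 14.3% of all genes, 7.24% higher and 7.07% lower in W329G. EIF4EBP2 was lower in W329G, at 34.4 to 48.2 CPM against 56.4 to 63.9 CPM in WT, with no overlap. The difference was -0.46 ± 0.11 (edgeR, adjusted p = 0.0222), with -0.51 and -0.46 in experiments 1 and 2. EIF3J (ENSG00000104131, chr15:44537057-44563029, plus strand) was higher, with 77.2, 91.5, 61.2 and 62.6 CPM in WT and 132, 98.5, 81.6 and 139.9 CPM in W329G. The groups overlapped across experiments and were apart within each, and the difference was 0.73 ± 0.20 (edgeR, adjusted p = 0.0455). With the block EIF2B3 and EIF2S2 were called too (edgeR, adjusted p = 0.0341 and 0.0456), which makes 4 genes, against 18.9% of all genes. EIF2B3, of the nucleotide exchange factor of eIF2, gave 0.50 ± 0.14 without it (edgeR, adjusted p = 0.0505).

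Neither call stood when line numbers were exchanged in experiment 2 (edgeR, adjusted p = 0.239 for EIF4EBP2 and 0.327 for EIF3J). Calls over all genes fell there as well, from 2504 to 222. Without W329G line 1 the differences were -0.54 for EIF4EBP2 and 0.84 for EIF3J, and without line 2 they were -0.38 and 0.61. Without WT line 2 the difference for EIF4EBP2 was -0.42. Each fit without a line holds 1 sum per treatment in that genotype, so its p-values are not given. The median difference of the 44 genes was 0.12, against -0.01 over all genes. The comparisons by genotype and by treatment share libraries, and for EIF4EBP2 the difference between the 5-FU responses was -0.23 ± 0.19 (95% interval -0.63 to 0.17) and for EIF3J 0.09 ± 0.35 (-0.65 to 0.83).

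The rest of the translation machinery was read from 6 lists of related genes, of which 62 were tested. In WT 4 of the 62 fell and in W329G 2, against 5.22% and 0.59% of all genes, so the WT count is near that of any genes. Of 15 other cytosolic initiation factors 1 fell in WT, EIF2A, an initiator tRNA carrier apart from eIF2 (-0.50 ± 0.14, edgeR, adjusted p = 0.0334). Of 16 genes of mTORC1 and eIF4E control 2 fell in WT: EIF4EBP1, the better known relative of EIF4EBP2 (-0.78 ± 0.18, edgeR, adjusted p = 0.0127), and the S6 kinase gene RPS6KB1 (-0.49 ± 0.13, edgeR, adjusted p = 0.0306). In W329G 1 of the 16 fell, PDCD4, an inhibitor of eIF4A (-0.83 ± 0.18, edgeR, adjusted p = 0.04). PDCD4 measured 62.5, 47.7, 38.2 and 60.3 CPM in W329G DMSO and 43.7, 25.7, 21 and 27.9 CPM under 5-FU, and in WT 39.1, 40.9, 30.9 and 34.3 CPM under DMSO and 41.2, 45.5, 37.7 and 38.2 CPM under 5-FU. It was lower in all 4 W329G pairs and higher in all 4 WT pairs, and the difference between the responses was -1.0 ± 0.25 (edgeR, adjusted p = 0.0672; 0.000799 with the block).

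EEFSEC, the elongation factor for selenocysteine, was the 1 gene that fell in both genotypes among 11 tested of 12 other elongation and modification genes. It fell by 0.82 on the log2 scale in WT (edgeR, adjusted p = 0.0137) and by 1.12 in W329G (adjusted p = 0.017), and was lower in W329G under 5-FU (-1.17 ± 0.19, edgeR, adjusted p = 0.00582). Between the genotypes under 5-FU 4 of the 62 genes were higher and 2 lower in W329G, against 7.24% and 7.07% of all genes, which is no more than among all genes. The 4 higher in W329G were EEF1E1, a scaffold of the tRNA synthetase complex (0.75 ± 0.20, adjusted p = 0.036), EIF2AK2, the eIF2 kinase PKR (0.63 ± 0.15, adjusted p = 0.0276), RPTOR, a subunit of mTORC1 (0.45 ± 0.11, adjusted p = 0.0289), and LARP1, which binds TOP messages (0.42 ± 0.10, adjusted p = 0.0234). EIF4E3, a cap-binding relative of eIF4E, was lower there (-0.86 ± 0.21, edgeR, adjusted p = 0.0275). EEFSEC and EIF4E3 also had lower means in W329G under DMSO, at 6.74 against 12.7 CPM and 10.8 against 18.7 CPM in WT. Of the 62 genes none passed edgeR's test between the genotypes under DMSO. Of 9 mitochondrial translation factors none passed edgeR's test in any of the 5 comparisons, and at an unadjusted p under 0.05 there were 2, both under DMSO between the genotypes. For none of the genes of these lists did the difference between the responses pass without the block by edgeR's adjusted p, and 5 of them had an unadjusted p under 0.05. With the block PDCD4 passed, and EIF1AD, a nuclear relative of eIF1A, at 0.48 ± 0.16 (edgeR, adjusted p = 0.22; 0.0401 with the block).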

How the data were processed

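Per the labels' protocols, column-purified RNA was enriched for poly-A and prepared with a TruSeq kit. The authors deposited raw counts per gene, in 1 table per library and 16 in all; per the file headers, experiment 1 lists Ensembl genes with exon coordinates and experiment 2 gene symbols. For the aligner, the counter and strand, the sources used here give nothing. Per the submitters' processing notes the build is hg19, but 96.3% of 56898 genes in the experiment 1 tables that GENCODE 29 also holds have its GRCh38 start and end, and gene coordinates in the text are from those tables. All 26 values of 7 or more digits in experiment 2 end in 0.

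Tables were joined by symbol (28443 genes by the current one and 267 by an older one, with 15 ambiguous symbols left out), keeping 97.91% to 98.92% of a library's counts. Counts were tested with edgeR 4.0.16 in R 4.3.3 (TMM, filterByExpr by group, quasi-likelihood F test, Benjamini-Hochberg over all genes, threshold 0.05): both 5-FU responses and their difference on 16 libraries with experiment as a covariate, the genotypes on 8 sums per line and treatment over both experiments. All 44 genes passed the filter in both fits. SE is the absolute log2 fold change over the root of F, and CPM uses TMM-scaled totals. Pair changes are differences of log2 CPM with a prior count of 2. The fit was run on simulated data with the same spread for every gene and no difference between lines. That run does not give its error rate in these data. Depths leave counting error small beside the spread between libraries: within each experiment, both libraries of a group differed with a chi-square per degree of freedom of 63.6 or more.

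DMSO and 5-FU libraries of 1 line and experiment were paired by label; the difference between lines correlated between treatments, within an experiment, at r = 0.486 and 0.597 in WT and 0.708 and 0.632 in W329G (across genes, which are not independent). Between the experiments the correlations were -0.19 and -0.302 in WT and -0.485 and -0.568 in W329G, so line numbers were also exchanged in experiment 2.

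Alternatives were DESeq2 1.42.0 and its size factors, no filter (at least 1 read), no mitochondrial genes, pseudogene copies added, the block, 1 experiment, single libraries, prior count 0.5 and leaving out 1 replicate or line; leaving out replicates for medians and shares was chosen after seeing the data. The 44 genes and the lists were chosen with earlier results of these data known. Named with values are genes with adjusted p under 0.05 in any of the 5 comparisons, the 3 smallest p of each comparison, the 5 highest CPM per kb and up to 3 called genes of each related list and comparison; EIF6, EIF3F, EEF1G, EIF4A1, EIF3C, EIF2B5, EIF4E and the marker genes were added after their values were seen.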

Additional observations from a re-analysis of the deposited data

Results flagged for a closer look

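In groups of 4 libraries, a value was picked out where the gap to its nearest neighbour took more of the whole range than Dixon's 95% limit allows; 82 groups were tested, 4 gave such a value, and chance picks about 1 in 20 groups. EIF3D in W329G 5-FU replicate 4 lay at 145.7 CPM, below 158.6 to 159.9 CPM in the other 3 libraries. EIF3E in WT 5-FU replicate 2 lay at 367.4 CPM, above 282.5 to 296.9 CPM in the others. EEF1A1 in WT DMSO replicate 2 lay at 10885.2 CPM, above 6626.3 to 7307.9 CPM. The 44 genes together took 3.35% of the counts in W329G DMSO replicate 1, the library with the smallest share in mitochondrial genes (7.14%). The response to 5-FU differed between the genotypes (W329G minus WT, log2) by -1.85 for MDM2, which passed edgeR's test with and without the replicate block, and by -1.0 for PDCD4 and 0.48 for EIF1AD, which passed only with the block.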

How the results depend on the processing

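Of the genes with an adjusted p under 0.05, none of the 44 changed sign under an alternative that was run for it. Among the uncalled genes 9 in WT and 10 in W329G had the opposite sign in 1 experiment alone, and 20 for the difference of the responses, 12 between genotypes under DMSO and 15 under 5-FU. The number of the 44 genes called in WT (9) was 5 with no filter on low counts and 20 with the replicate block. Over all genes the calls moved from 1444 to 1248 and 4071 in these fits. The WT number was 0 in experiment 1 alone and 0 in experiment 2 alone, and ran from 3 to 5 without 1 replicate. In W329G (5) the number was 12 by DESeq2, 3 with no filter and 16 with the block. Over all genes the calls moved from 129 to 571, 100 and 1793 in these fits. The W329G number was 0 in either experiment alone and 1 to 2 without 1 replicate. The difference of the responses stayed at 0 in every fit. In either experiment alone no gene of all those tested passed for the difference or for W329G, nor for WT in experiment 2. A count of 0 in those fits says nothing particular about the 44 genes. Between genotypes under DMSO (0) the number was 2 by DESeq2, 1 with no filter and 1 with the block. Calls over all genes rose from 249 to 1279, 922 and 565 in these fits. Under 5-FU (2) the number was 4 by DESeq2, 4 with the block and 1 with single libraries. It was 0 with line numbers exchanged in experiment 2 and 0 in experiment 1 or 2 alone. Calls over all genes moved from 2504 to 3344, 3307, 2112, 222, 421 and 30 in the same order. Leaving out mitochondrial genes moved the shares of counts to 2.85% in WT DMSO, 2.37% in WT 5-FU, 3.23% in W329G DMSO and 2.49% in W329G 5-FU. The causes were not tested, except that single experiments and reduced sets hold fewer libraries. Medians without 1 replicate ran from -0.276 to -0.208 in WT and from -0.252 to -0.209 in W329G. Counting error was small beside the spread between libraries, and each genotype had 2 lines. EEF1G, EIF4A1, EIF3C and EIF3F are not measured alike by the 2 sets of tables.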
